A study of Mus musculus with 37 samples.

Results

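The D-type cyclins and their kinase partners were followed in cultured mouse astrocytes through every probe set that the array annotates to Ccnd1, Ccnd2, Ccnd3, Cdk4 or Cdk6 alone. These 5 of 18194 named genes were covered by 19 of 45101 probe sets, and the genes were taken by name, whatever their values. RNA of 37 astrocyte cultures had been hybridised to 37 arrays, 1 colour each, and the deposited values are on the log2 scale. Astrocytes from newborn mice of the inbred strains 129S4/SvJae (129) and C57BL/6J (B6), male and female, had been electroporated with pcDNA3.1-hygro carrying Cdca7l or with the empty plasmid, and are described as stably transfected. The question of the design is what added Cdca7l, whose nuclear product is known to interact with MYC, does to the transcripts of male and female cells of each strain. With Cdca7l there were 4 female and 5 male cultures from 129 mice, and 4 female and 5 male cultures from B6 mice. With vector there were 4 female and 5 male cultures from 129, and 5 of each sex from B6. No source used here says that same-group cultures came from different litters, beyond describing them as independent isolates. All 8 groups thus shared the electroporation and the plasmid backbone, and no culture left without plasmid entered the comparisons. The labels name clones with a number and a second number in parentheses, such as 4(1), and 15 such labels occur once with Cdca7l and once with vector in the same strain and sex. The first number recurs within some groups, as in 3(1), 3(2) and 3(3) of 129 males.

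D-type cyclins are the part of the cell cycle engine that answers to growth factors. Their genes are induced by mitogens through the RAS, MYC and AP-1 pathways, and the proteins bind and activate the kinases CDK4 and CDK6. The active kinases phosphorylate the retinoblastoma protein and its relatives, which releases E2F factors to switch on genes of DNA replication, so that a cell passes from G1 into S phase. Inhibitors of the INK4 family hold CDK4 and CDK6 in check. In the brain, cyclin D1 and cyclin D2 act in glial and neural progenitors, and CDK4, CDK6 and their inhibitors are frequent targets of genetic change in glioma.

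Cdk4 is known as a target of MYC, which reads the E-box CACGTG. Because Cdca7l was added and its product binds MYC, the sequence just before the Cdk4 start is shown, from RefSeq's annotation of GRCm38.p6, chr10:127063285-127063534, plus strand, with CACGTG in capitals.

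Cdk4 promoter: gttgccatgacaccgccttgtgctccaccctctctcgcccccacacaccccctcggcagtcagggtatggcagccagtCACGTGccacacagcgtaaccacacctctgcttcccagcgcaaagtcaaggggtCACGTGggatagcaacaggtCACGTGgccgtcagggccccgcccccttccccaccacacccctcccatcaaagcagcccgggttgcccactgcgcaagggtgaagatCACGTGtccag

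The motif reads the same on both strands. It occurred 4 times in this window, beginning 172, 118, 98 and 11 bases before the annotated start. Of 32851 mouse promoter windows of the same 250 bases, 1978 (6.02%) held at least 1 copy and 7 held at least 4. The Cdk6 window held 1 copy, 220 bases before the start, and the windows before the 2 annotated starts of Ccnd3 held none. A match describes letters and is no evidence of binding.

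Of the 19 probe sets, 16 exceeded the background level on all 37 arrays and were tested. The background level was the median of the whole table, 3.19 on the log2 scale. Ccnd3 was left with 1 tested set of 3, and Cdk6 with 2 of 3. The Ccnd3 sets 1438805_at and 1444323_at stayed below the background level on all arrays, and the Cdk6 set 1460291_at exceeded it on 1 array only, at 3.26. Values of different probe sets are not on a common scale, so levels are compared between cultures and not between genes. Each gene is led below by its probe set with the highest mean.

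Ccnd1, on chromosome 7 at 144929931-144939831, encodes cyclin D1. Its leading set 1448698_at lay between 13.89 and 14.50 in all 37 cultures, with a mean of 14.24 and an SD of 0.135 over the arrays. That mean was higher than 99.7% of the probe sets in the table, whose highest value was 15.26, and the SD was lower than that of nearly all tested sets, at percentile 1.56. The other 2 sets moved more, 1417420_at between 12.36 and 13.77 and 1417419_at between 9.17 and 11.78. Ccnd2, on chromosome 6 at 127125162-127152188, encodes cyclin D2, and its leading set 1434745_at showed the same picture, with values from 14.04 to 14.56, a mean of 14.30 and an SD of 0.126. Its other 6 sets had SDs between 0.194 and 0.260. The part that the high position of the 2 leading sets plays in their narrow spread was not tested.

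Ccnd3, on chromosome 17 at 47505051-47599689, encodes cyclin D3, and its set 1415907_at ranged from 10.13 to 11.69. Cdk4, on chromosome 10 at 127063535-127067288, encodes the kinase CDK4, and its leading set 1422441_x_at ranged from 11.43 to 12.87. Cdk6, on chromosome 5 at 3341004-3531008, encodes CDK6, and its leading set 1435338_at ranged from 9.09 to 11.30. In the naming of the array's maker, a set with the ending x_at can also bind other transcripts, which applies to the Cdk4 set 1422441_x_at and the Ccnd2 set 1455956_x_at. The gene positions are those of GRCm38.p6.

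**Figure D1:**
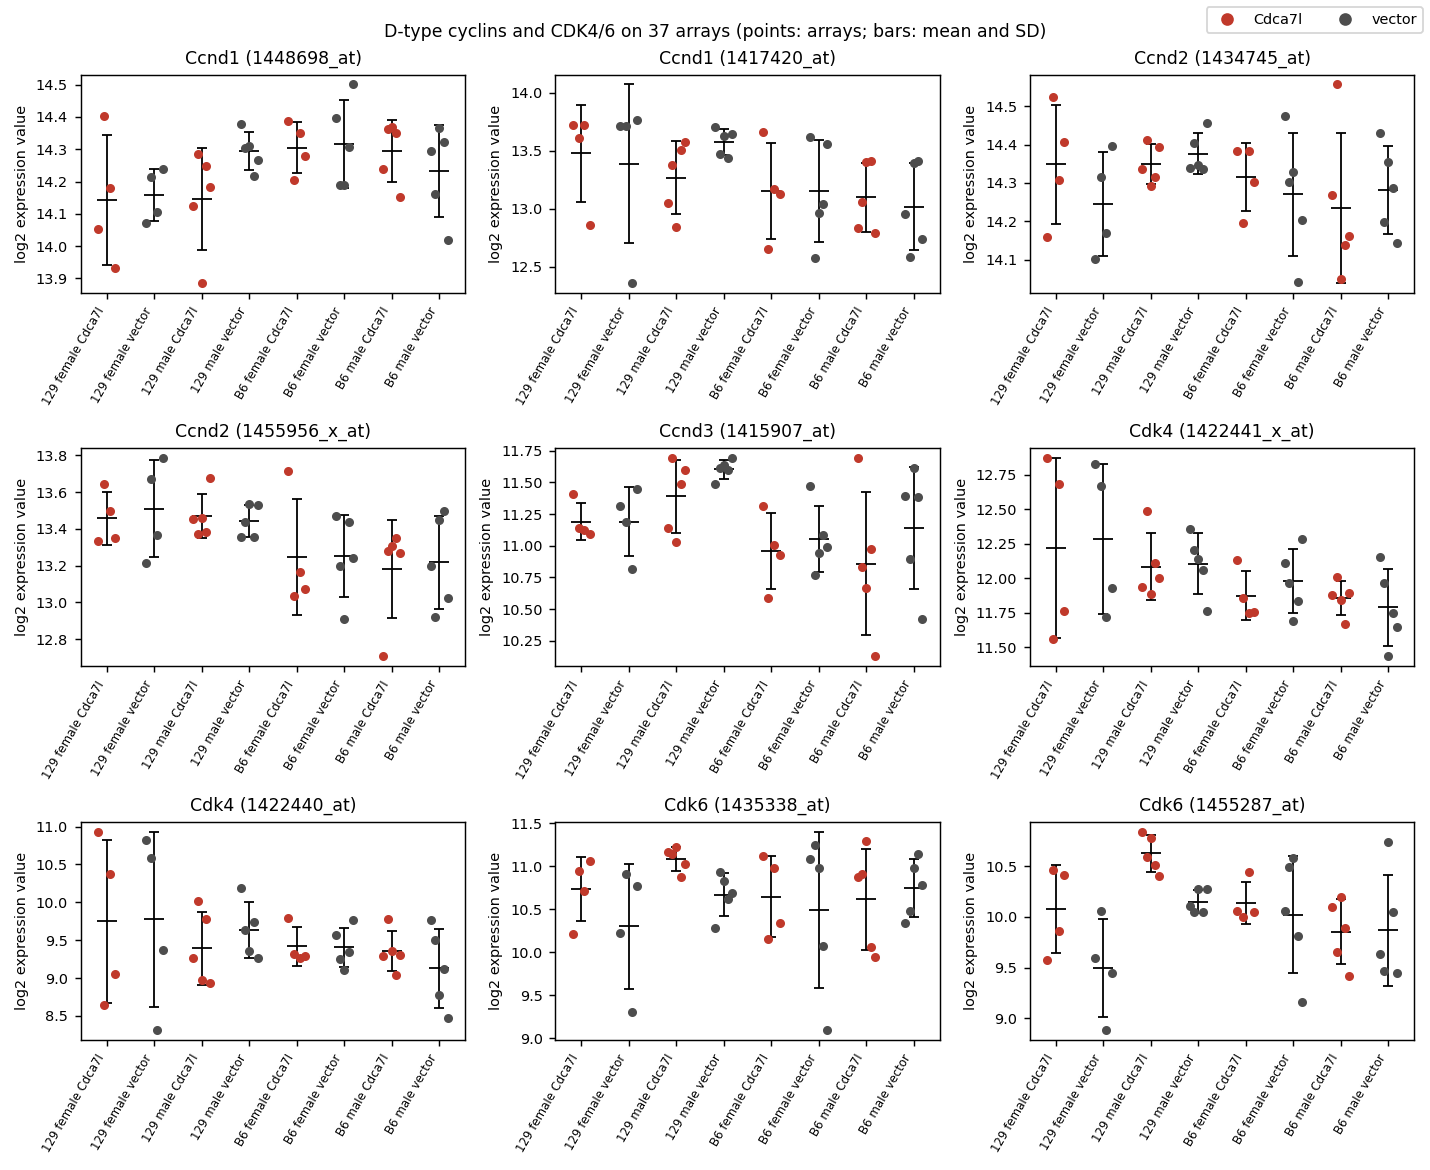
Each panel plots the log2 expression values of 1 probe set in the 8 groups on the x axis, with a point per array and bars for the mean and SD, red for Cdca7l and grey for vector. Cdca7l and vector values overlap in each panel apart from Cdk6 1455287_at in 129 males, and the Cdk4 sets spread most in 129 females.

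RNA from Cdca7l was higher in Cdca7l cultures by 4.61 ± 0.484 on the log2 scale, which is 24.5-fold (SE, 18 against 19 arrays, limma, adjusted p = 1.25e-06), so the plasmid labels were borne out as a whole. Of the 37 arrays, 2 stood apart. The array of 129 female vector 1(3) had an upper quartile of 8.35, where the other 36 had 9.03 to 9.51. The array labelled B6 female vector 5.1(1) had Xist at 2.40, within the range of male arrays (up to 2.50), where the other 16 female arrays had 10.71 to 12.20, so it goes against its label. Some of the results below that hang on either array are also given without both, and others are given on all arrays only. Most astrocyte markers were plainly present, as 12 of 12 were measured and 10 exceeded background on all arrays, among them Gfap, Aqp4, Slc1a3 and Aldh1l1. Slc1a2 did so on 36 arrays, and S100b, with a mean of 3.32, on 13. Of the other lists, 5 of 10 endothelial, 4 of 14 microglia and macrophage and 2 of 10 neuronal genes exceeded background on 0 arrays. Pecam1, Cdh5, Cldn5, Cx3cr1, P2ry12 and Rbfox3 were among these. Other genes went the other way, as 2 microglia and macrophage, 2 neuronal, 3 oligodendrocyte-lineage and 5 fibroblast and meningeal genes exceeded background on all arrays. Among them were Cd68, Fcer1g, Stmn2, Map2, Olig1, Olig2 and Cnp, and the macrophage gene C1qb did so on 18 arrays. The fibroblast and meningeal genes among them were Col1a1, Col1a2, Pdgfrb, Fbln1 and Islr, with means from 6.45 for Fbln1 to 12.89 for Islr.

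Added Cdca7l was accompanied by no detected change of any D-type cyclin or of either kinase. Averaged over strains and sexes, 0 of 16 member probe sets passed an adjusted p of 0.05, where 0.00782% of all 25579 tested probe sets (2 sets) passed. The differences ran from -0.19 for Ccnd1 1417419_at to 0.29 for Cdk6 1455287_at, with a median of -0.02 beside 0.02 over all tested sets, and 6 of 16 were positive. The 95% confidence intervals of all 16 lay between -0.62 and 0.57, so changes beyond that range are outside every member's interval.

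Ccnd1 1448698_at averaged 14.14 ± 0.202, 14.15 ± 0.158, 14.31 ± 0.0800 and 14.29 ± 0.0965 in the Cdca7l cells of 129 females, 129 males, B6 females and B6 males, against 14.16 ± 0.0812, 14.30 ± 0.0596, 14.32 ± 0.135 and 14.23 ± 0.142 in the vector cells (SD, n = 4 or 5). The averaged difference was -0.03, with an interval of -0.14 to 0.09 (limma, adjusted p = 0.999). On this set the groups overlapped throughout. The other Ccnd1 sets had wider intervals, from -0.30 to 0.24 around -0.03 for 1417420_at and from -0.62 to 0.23 around -0.19 for 1417419_at. Without both arrays that stood apart, these differences were -0.13 for 1417420_at and -0.23 for 1417419_at. The set 1417419_at stood at -0.68 ± 0.401 in 129 males and 0.22 ± 0.401 in B6 males (SE), and neither passed. Ccnd2 1434745_at averaged 14.35 ± 0.154, 14.35 ± 0.0509, 14.32 ± 0.0884 and 14.24 ± 0.195 in the Cdca7l cells in the same order, against 14.25 ± 0.134, 14.38 ± 0.0526, 14.27 ± 0.160 and 14.28 ± 0.114 in the vector cells (SD, n = 4 or 5). Its averaged difference was 0.02, with an interval of -0.10 to 0.13 (limma, adjusted p = 0.999).

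Ccnd3 1415907_at stood at 11.41, 11.14, 11.12 and 11.10 in Cdca7l cells of 129 females, against 11.31, 11.18, 10.81 and 11.44 in their vector cells. In 129 males it stood at 11.14, 11.69, 11.03, 11.49 and 11.60 with Cdca7l, against 11.48, 11.61, 11.64, 11.59 and 11.69 with vector. The vector cells of 129 males were thus close together near the top of the Ccnd3 range, and the Cdca7l cells reached from there down to 11.03. In B6 females the values were 11.32, 10.58, 11.01 and 10.93 with Cdca7l, against 11.47, 10.77, 10.95, 11.09 and 10.99 with vector. In B6 males they were 11.69, 10.84, 10.67, 10.98 and 10.13 with Cdca7l, against 11.39, 10.90, 11.62, 11.38 and 10.42 with vector. Cyclin D3 RNA overlapped between Cdca7l and vector cells in every strain and sex, and the averaged difference of -0.15 had an interval of -0.38 to 0.09 (limma, adjusted p = 0.999). Between cultures of the same clone label, Ccnd3 was lower with Cdca7l in 4 of 4 pairs of B6 males, 2 of 3 pairs of B6 females and 5 of 8 pairs of 129. With the label as a fixed replicate block, a fit that keeps only the 30 arrays in pairs, the difference was -0.55 ± 0.142 in B6 males and -0.19 ± 0.0741 averaged (SE). On all 37 arrays without the block it was -0.28 ± 0.222 in B6 males (SE). The blocked fit leaves out B6 male Cdca7l 5(3), the highest of its group at 11.69, and vector 2(4) at 10.90. The blocked and unblocked values thus rest on different arrays. Neither blocked value passed in limma (adjusted p = 0.760 and 1.00).

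Cdk4 1422441_x_at had its widest spread in 129 females, where the Cdca7l cells with the labels 4(1), 2(1), 2(3) and 1(3) stood at 12.87, 12.68, 11.56 and 11.76, against 12.83, 12.66, 11.93 and 11.72 in the vector cells of the same labels. The labels 4(1) and 2(1) gave the 4 highest Cdk4 values of all 37 arrays, with either plasmid. In 129 males the values were 11.94, 12.48, 11.88, 12.11 and 11.998 with Cdca7l, against 12.36, 12.20, 12.14, 12.06 and 11.76 with vector. In B6 females they were 12.13, 11.85, 11.75 and 11.76 with Cdca7l, against 12.11, 11.97, 11.69, 11.83 and 12.29 with vector. In B6 males they were 11.88, 12.01, 11.84, 11.67 and 11.89 with Cdca7l, against 12.15, 11.97, 11.43, 11.75 and 11.65 with vector. Cdk4 overlapped between the plasmids in each group, and the averaged difference of -0.03 had an interval of -0.26 to 0.20 (limma, adjusted p = 0.999).

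Cdk6 had the largest positive differences among the members. The set 1455287_at, singled out after its values were seen, had the lowest unadjusted p of the 16 in the averaged comparison, 0.0355, and was the only one under 0.05 there. It stood at 10.84, 10.59, 10.77, 10.52 and 10.41 in Cdca7l cells of 129 males, against 10.10, 10.05, 10.27, 10.05 and 10.28 in their vector cells, so these groups did not overlap. In 129 females it stood at 9.58, 10.46, 9.86 and 10.41 with Cdca7l, against 9.60, 9.44, 10.05 and 8.89 with vector. The lowest of these, 8.89, belongs to 129 female vector 1(3), the array with the low upper quartile. Cdk6 1455287_at in B6 females was 10.06, 10.00, 10.44 and 10.05 with Cdca7l, against 10.06, 10.495, 10.58, 9.81 and 9.16 with vector. In B6 males it was 10.10, 9.66, 10.20, 9.89 and 9.42 with Cdca7l, against 9.63, 9.47, 10.74, 10.05 and 9.45 with vector. In B6 cells, then, the Cdk6 values of the 2 plasmids were mixed throughout.

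The fitted difference of Cdk6 1455287_at was 0.58 ± 0.281 in 129 females and 0.47 ± 0.252 in 129 males, with 0.12 ± 0.267 in B6 females and -0.01 ± 0.252 in B6 males (SE), and none passed in limma (adjusted p at least 0.999). Of all tested sets 0% passed in each of these 4 comparisons, in which Cdca7l itself did not pass either, at adjusted p between 0.157 and 0.999 in limma. With the clone label as a fixed replicate block the averaged Cdk6 1455287_at difference was 0.15 ± 0.127. Here and below, a fit with that block keeps only the 30 arrays in pairs. With the array of 129 female vector 1(3) and the array labelled B6 female vector 5.1(1) left out, the averaged Cdk6 1455287_at difference was 0.23. The leading Cdk6 set 1435338_at had 0.43 ± 0.372, 0.42 ± 0.333, 0.15 ± 0.353 and -0.13 ± 0.333 in the same order (SE). Without both arrays that stood apart, the differences in 129 females were 0.10 for 1435338_at and 0.38 for 1455287_at, and the averaged difference of 1435338_at was 0.11, against 0.22 on all arrays. With the fixed replicate block the differences in B6 females were -0.36 ± 0.398 for 1435338_at and -0.21 ± 0.282 for 1455287_at (SE). That fit leaves out B6 female Cdca7l 1(4) and the vector arrays 5.1(1) and 2.1(1). These vector arrays hold the lowest 1455287_at values of their group, down to 9.16, so the values with and without the block rest on different arrays. The test of whether the effect differed between the strains gave 0.48 ± 0.263 for 129 minus B6 in 1455287_at (SE, limma, adjusted p = 1.00), 0.69 ± 0.255 with the fixed block (SE, limma, adjusted p = 0.984) and 0.40 without both arrays that stood apart. It passed for 0 of the 16 sets, with 0% of all sets passing. The difference of the effect between the sexes also passed for 0 of 16, with 0% of all sets passing and member values from -0.25 to 0.14.

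**Figure D2:**
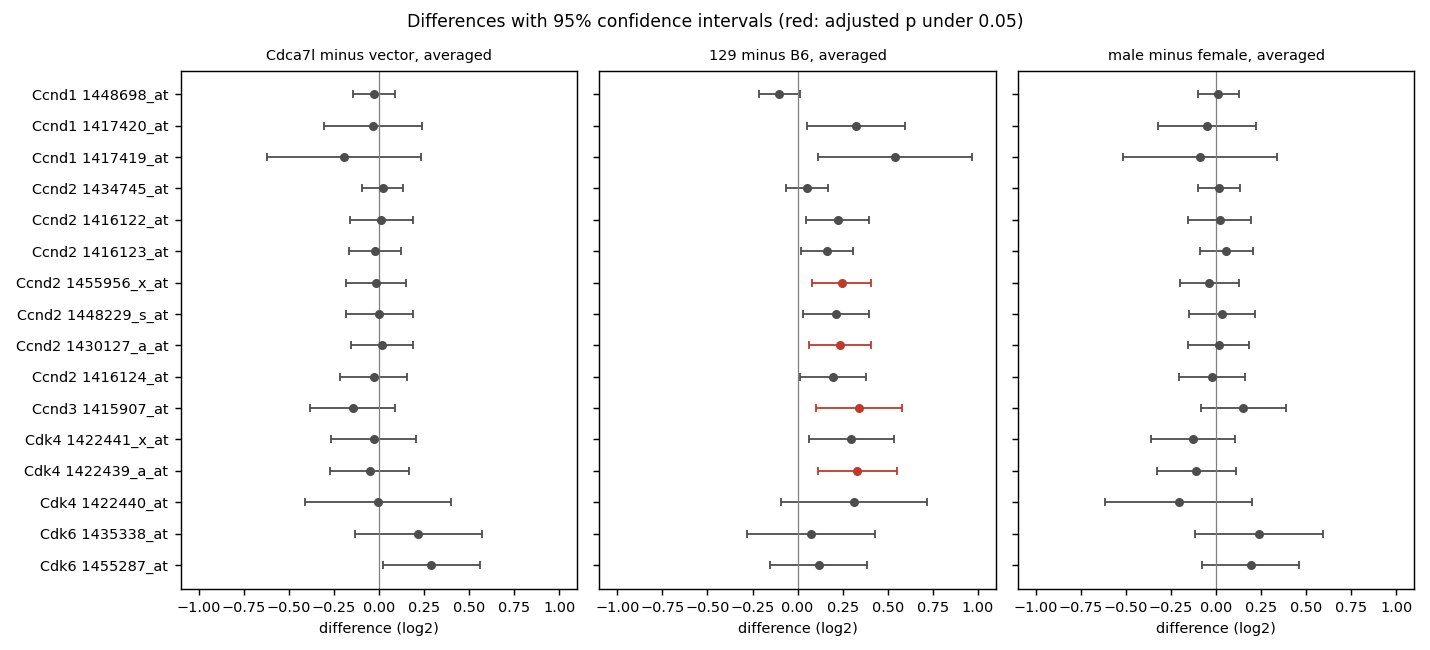
Points give the fitted log2 difference of each of the 16 tested member probe sets (rows) in 3 comparisons (panels), with bars for the 95% confidence interval and red for an adjusted p under 0.05. In the left panel all points lie between -0.19 and 0.29, in the middle panel 15 of 16 lie above 0 and 4 pass, and in the right panel none passes.

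The pathway around the members, taken as 8 lists with 82 measured genes of 88, also showed no call for added Cdca7l, either averaged or in any strain and sex. In the averaged comparison, 12 of 13 mitotic genes were positive with a median of 0.29, and the cyclin B2 gene Ccnb2, at 0.60 ± 0.626, and Cdc20, an activator of the anaphase-promoting complex, at 0.38 ± 0.369, did not pass (SE, limma, adjusted p = 0.999 for each). The groups went both ways, with 12 of 13 mitotic genes positive in 129 males (median 0.69) and 13 of 13 in B6 females (median 0.79), and 6 of 13 in 129 females (median -0.11) and 4 of 13 in B6 males (median -0.12). Of 17 genes upstream of the D cyclins 14 were positive with a median of 0.19, and Mycn, a MYC family gene, had 0.57 ± 0.423 without passing. Of 14 measured E2F target genes of DNA replication 9 were positive with a median of 0.06, while 2 of 14 were positive in 129 males (median -0.25) and 14 of 14 in B6 females (median 0.37). Among the CDK inhibitors, the INK4 genes Cdkn2c and Cdkn2b had 0.14 ± 0.175 and 0.10 ± 0.115 and did not pass.

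Between the strains, 4 member probe sets passed, and all 4 were higher in 129 cells. They belonged to Ccnd2, Ccnd3 and Cdk4, and the differences were small, 0.24 to 0.34 on the log2 scale, or 1.18-fold to 1.27-fold. Of all tested sets 25.2% passed between the strains in either direction and 10.6% were higher in 129, so the members' 4 of 16 is close to the share of the whole array in either direction. Over the 16 member probe sets 15 differences were positive and the median was 0.23, beside 0.0047 over all tested sets, where 50.4% were positive. These 16 sets measure 5 genes and 7 of them measure Ccnd2, so they are not separate observations. By leading set the differences were -0.10 for Ccnd1, 0.05 for Ccnd2, 0.34 for Ccnd3, 0.30 for Cdk4 and 0.07 for Cdk6.

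Ccnd2 passed in 2 of its 7 sets. The set 1455956_x_at stood at 13.33, 13.64, 13.50 and 13.35 in 129 female Cdca7l cells, 13.46, 13.37, 13.46, 13.38 and 13.68 in 129 male Cdca7l cells, 13.22, 13.67, 13.37 and 13.79 in 129 female vector cells and 13.36, 13.44, 13.53, 13.35 and 13.53 in 129 male vector cells. In B6 it stood at 13.72, 13.03, 13.17 and 13.07 in female Cdca7l cells, 12.70, 13.28, 13.31, 13.35 and 13.27 in male Cdca7l cells, 13.47, 13.20, 12.91, 13.44 and 13.24 in female vector cells and 13.20, 12.92, 13.45, 13.50 and 13.03 in male vector cells. All 129 cultures lay at 13.22 or above, while B6 cultures reached down to 12.70, and the ranges overlapped.

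The difference of Ccnd2 1455956_x_at was 0.24 ± 0.0806 (SE, limma, adjusted p = 0.0255). The set 1430127_a_at gave 0.24 ± 0.0843 (SE, limma, adjusted p = 0.0373). The other 5 Ccnd2 sets were positive as well, from 0.05 to 0.22, with adjusted p-values between 0.0547 and 0.508. The smallest of these differences was that of the leading set 1434745_at, 0.05 ± 0.0567 (SE).

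Ccnd3 1415907_at was higher in 129 cells by 0.34 ± 0.116, a factor of 1.27 (SE, limma, adjusted p = 0.0311). The Ccnd3 values listed above show 129 cultures between 10.81 and 11.69 and B6 cultures between 10.13 and 11.69, so the top of the range was shared and the low values were in B6. Cdk4 passed in 1 of 3 sets, 1422439_a_at, with 0.33 ± 0.108, a factor of 1.26 (SE, limma, adjusted p = 0.0233). Its leading set gave 0.30 ± 0.114 (SE, limma, adjusted p = 0.0532) and 1422440_at 0.31 ± 0.200 (SE, limma, adjusted p = 0.252). The 129 female cultures 4(1) and 2(1) are the high points of the Cdk4 difference, as given above, and the 129 male cultures ranged from 11.76 to 12.48 on the leading set.

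Ccnd1 had a disagreement between its sets. The sets 1417420_at and 1417419_at were higher in 129 by 0.32 ± 0.133 and 0.54 ± 0.210 without passing (SE, limma, adjusted p = 0.0713 and 0.0558), while the leading set 1448698_at was at -0.10 ± 0.0563 (SE, adjusted p = 0.181). Cdk6 showed 0.07 ± 0.174 for 1435338_at and 0.12 ± 0.132 for 1455287_at, with intervals from -0.28 to 0.43 and from -0.15 to 0.39 (SE). Without both arrays that stood apart the value of 1435338_at was 0.13. Across the 8 groups ordered by mean, the 4 highest groups were the 4 groups of 129 cells for 11 of the 16 sets, though no gap between neighbouring groups exceeded the larger of their SDs for 14 of the 16. Each Cdk6 set had 1 such gap of 7.

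Arrays that share a clone label are not fully independent, and the correlation within a label was 0.409 over all tested sets. With the label as a random replicate block, 2 of the 4 strain calls were kept, Ccnd2 1455956_x_at (adjusted p = 0.0468) and Cdk4 1422439_a_at (adjusted p = 0.0459), and 2 were lost, Ccnd2 1430127_a_at (adjusted p = 0.0708) and Ccnd3 1415907_at (adjusted p = 0.0779, limma in each case). On the vector arrays alone 0 of 16 passed in limma (smallest adjusted p = 0.107), with differences of 0.24, 0.16, 0.30 and 0.31 for Ccnd2 1455956_x_at, Ccnd2 1430127_a_at, Ccnd3 1415907_at and Cdk4 1422439_a_at. Leaving out B6 female Cdca7l 4(5) left 2 calls, and leaving out 129 female Cdca7l 1(3), 129 female vector 1(3) or B6 female Cdca7l 6(3) gave 8 each. Without B6 male vector 5.6(1) there were 7 calls, and without both arrays that stood apart there were 6. These 6 no longer held Ccnd2 1430127_a_at (limma, adjusted p = 0.0541), and held Ccnd1 1417420_at, Ccnd1 1417419_at and Cdk4 1422441_x_at in addition to the other 3. The call of Ccnd2 1430127_a_at passed in 23 of the 37 fits that left out 1 array, that of Ccnd3 in 35, and those of Ccnd2 1455956_x_at and Cdk4 1422439_a_at in all 37. Of all tested sets, 16.6% passed with the random block, 8.69% on the vector arrays alone and 27.6% without both arrays that stood apart.

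Mean scores of cell type markers differed between the strains too, as a description with no test. The mean score of 10 fibroblast and meningeal genes, taken as deviations from each gene's overall mean, was 1.07 in 129 cultures (-0.87 to 4.57), against -1.01 in B6 cultures (-1.76 to -0.19). In 129 this score averaged 1.82 and 2.09 in males with Cdca7l and with vector, and -0.16 and 0.08 in females. In B6 it averaged -1.07 and -1.30 in males and -0.92 and -0.74 in females, in the same order. The astrocyte score over 12 genes was -0.38 in 129 (-2.75 to 0.88), against 0.36 in B6 (-0.74 to 1.04). The microglia and macrophage score over 7 measured genes of 14 was 0.40 in 129 (-1.57 to 5.42), against -0.38 in B6 (-1.53 to 4.08). By group its highest mean was 1.78 in 129 males with vector, while 129 males with Cdca7l had -0.56. The endothelial score rests on 2 measured genes of 10 and was 0.72 in 129 (-0.75 to 4.92), against -0.68 in B6 (-0.76 to -0.48). In 129 it averaged 1.27 and 1.19 in males with Cdca7l and with vector, and -0.11 and 0.28 in females. The ependymal and choroid plexus score over 5 measured genes of 10 was -0.44 in 129 (-3.64 to 2.01), against 0.42 in B6 (-1.63 to 3.49). Neuronal scores over 7 of 10 genes averaged -0.19 in 129 (-1.04 to 0.99), against 0.18 in B6 (-0.57 to 0.84), and oligodendrocyte-lineage scores over 5 of 10 genes averaged -0.05 in 129 (-1.45 to 1.42), against 0.05 in B6 (-0.94 to 1.00). The part of these differences in the strain result of the members was not tested, and in RNA from whole cultures, fewer cells of a type and less RNA per cell cannot be told apart.

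The pathway genes were compared between the strains in the same fit. Over the 8 lists, 18 of 82 genes were higher in 129 and 7 lower. Of all tested sets in this fit, 25.2% passed in either direction and 10.6% were higher in 129. With 1 probe set per gene, 28.1% passed in either direction. The counts of the lists, here and below, were not tested against these shares. Of 14 E2F target genes of DNA replication 6 were higher and none lower, with a median of 0.65 and 13 positive. Cdc6 and Cdt1, which load the replicative helicase at origins, were higher by 1.57 ± 0.563 and 1.02 ± 0.313, and the helicase subunits Mcm5 and Mcm3 by 1.49 ± 0.491 and 0.93 ± 0.289 (SE, limma, adjusted p between 0.0168 and 0.0395). The mean score of the 14 genes was 0.65 and 0.69 in 129 females with Cdca7l and with vector, with SDs of 1.52 and 1.58, and -0.05 and 0.17 in 129 males. In B6 it was 0.03 and -0.38 in females and -0.44 and -0.40 in males. The 129 female cultures 4(1) and 2(1) lay between 1.67 and 2.25 and the other 129 female cultures below 0. The part of these cultures in the strain difference of the list was not tested.

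Of 13 mitotic genes 3 were higher and none lower, with all 13 positive and a median of 0.92. The mitotic score averaged 0.84 and 1.05 in 129 females with Cdca7l and with vector, with SDs of 2.96 and 2.95, 0.56 and -0.06 in 129 males, 0.33 and -0.58 in B6 females and -0.99 and -0.71 in B6 males. The mitotic kinases Plk1 and Aurka were higher by 1.71 ± 0.447 and 1.68 ± 0.567, and Birc5, which encodes survivin, by 1.15 ± 0.410 (SE, limma, adjusted p = 0.00582, 0.0294 and 0.0382). Among 7 genes of the E-type and A-type cyclins with CDK2, 3 were higher, the phosphatase gene Cdc25a by 1.22 ± 0.267, the cyclin E1 gene Ccne1 by 0.78 ± 0.287 and the CDK subunit gene Cks1b by 0.44 ± 0.135 (SE).

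Among the regulators, Cdkn1b, which encodes the CDK inhibitor p27, was lower in 129, at -0.68 ± 0.144 and was the 1 of 6 measured inhibitors that passed (SE, limma, adjusted p = 0.000959). Of 12 pocket proteins and E2F factors, only the repressive factor gene E2f8 passed, higher by 1.11 ± 0.402 (SE). Of 9 genes of cyclin D turnover, Fbxl12, an F-box gene, was higher by 0.81 ± 0.303 and Usp2, a deubiquitinase gene, lower, at -0.82 ± 0.164 (SE). Of 4 genes of the CDK-activating kinase and the chaperones, Cdc37, a kinase chaperone gene, was higher by 0.36 ± 0.131 and Cdk7 lower, at -0.45 ± 0.145 (SE).

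Upstream of the D cyclins, 3 of 17 genes were higher and 4 lower in 129, with a median of -0.21. The immediate early genes Fos and Egr1 were lower, at -1.80 ± 0.401 and -0.94 ± 0.337, while Ets1 and Foxm1, which encode transcription factors, were higher by 0.87 ± 0.280 and 0.81 ± 0.233 (SE). Whether the members and these lists differ in the size of their strain difference was not tested.

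Between the sexes, 0 of 16 members passed, where 0.321% of all sets did, and 0.27% were higher in males. The differences of males minus females ran from -0.21 for Cdk4 1422440_at to 0.24 for Cdk6 1435338_at, with a median of 0.01 beside 0.01 over all tested sets, and the intervals lay between -0.62 and 0.59. Without both arrays that stood apart, one of which carries the female label its Xist goes against, Cdk6 1435338_at was at 0.13, Cdk4 1422440_at at -0.33 and Ccnd1 1417420_at at -0.14, against 0.24, -0.21 and -0.05 on all arrays. Ccnd3 was at 0.15 ± 0.116 and the leading Cdk4 set at -0.13 ± 0.114 (SE, limma, adjusted p = 0.493 and 0.556). Of the 82 pathway genes 0 passed, though all 14 E2F targets of DNA replication and 12 of 13 mitotic genes were negative, with medians of -0.33 and -0.84. The 129 females had mean replication scores of 0.65 with Cdca7l and 0.69 with vector, with SDs of 1.52 and 1.58, and hold the high cultures 4(1) and 2(1) named above. The part of these cultures in the direction of both lists was not tested.

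The sex difference was also compared between the strains, and 0 of 16 members passed, with 0% of all tested sets passing. The largest member value was that of Cdk6 1455287_at, 0.82 ± 0.263, the only one with an unadjusted p under 0.05 (SE, limma, adjusted p = 0.181). In 129 it averaged 10.62 ± 0.180 in males and 10.08 ± 0.430 in females with Cdca7l, and 10.15 ± 0.116 in males and 9.50 ± 0.481 in females with vector. In B6 it averaged 9.85 ± 0.319 in males and 10.14 ± 0.206 in females with Cdca7l, and 9.87 ± 0.544 in males and 10.02 ± 0.575 in females with vector (SD, n = 4 or 5). The Cdk6 means were thus higher in males than females of 129 with either plasmid, and lower in males than females of B6, by a difference that did not pass. Both arrays that stood apart enter these means, 129 female vector 1(3) as the lowest of its group at 8.89, and B6 female vector 5.1(1). Without both, 0 of 16 members passed as well, with 0% of all sets passing (limma, smallest adjusted p = 0.219).

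Cultures that share a clone label were compared next. For the 15 labels found with both plasmids, the deviation of the Cdca7l array from its group mean was set against that of the vector array. Of the 16 relations, 9 passed a permutation test with 100000 draws after adjustment over the 16. Ccnd1 1417420_at showed the closest, with r = 0.886 and rho = 0.857 (15 pairs, permutation test, adjusted p = 0.00032), 0.726 without the 2 pairs farthest from the median, 0.827 over the 8 pairs in 129 and 0.971 over the 7 in B6. For example, the label 1(3) of 129 females stood at 12.86 with Cdca7l and 12.36 with vector, while the other 3 labels stood at 13.61 to 13.72 with Cdca7l and 13.71 to 13.77 with vector. This vector array has the low upper quartile, and its pair is among the 2 left out for the value of 0.726.

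The 3 Cdk4 sets all passed, with r from 0.710 to 0.796 (permutation test, largest adjusted p = 0.0149). On 1422439_a_at the relation was r = 0.796 and rho = 0.764, 0.663 without the 2 farthest pairs, 0.827 in 129 and 0.888 in B6. Ccnd3 passed with r = 0.665 and rho = 0.514 (permutation test, adjusted p = 0.0238), 0.622 without the 2 farthest, 0.413 in 129 and 0.799 in B6. Ccnd2 passed in 3 of 7 sets, with r from 0.249 to 0.633 over the 7. Ccnd1 passed in 2 of 3.

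Neither Cdk6 set passed, with r = -0.136 for 1435338_at and 0.144 for 1455287_at (permutation test, adjusted p = 0.631 for both). In Cdk6 1455287_at r was -0.635 over the 8 pairs of 129 and 0.880 over the 7 pairs of B6. The largest gap within a label was 1.33 for 1435338_at, between 11.06 with Cdca7l and 9.30 with vector for 129 female 1(3), less the difference of the group means. That vector array is the one with the low upper quartile. Whether Cdk6 differs from the other members in this respect was not tested.

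**Figure D3:**
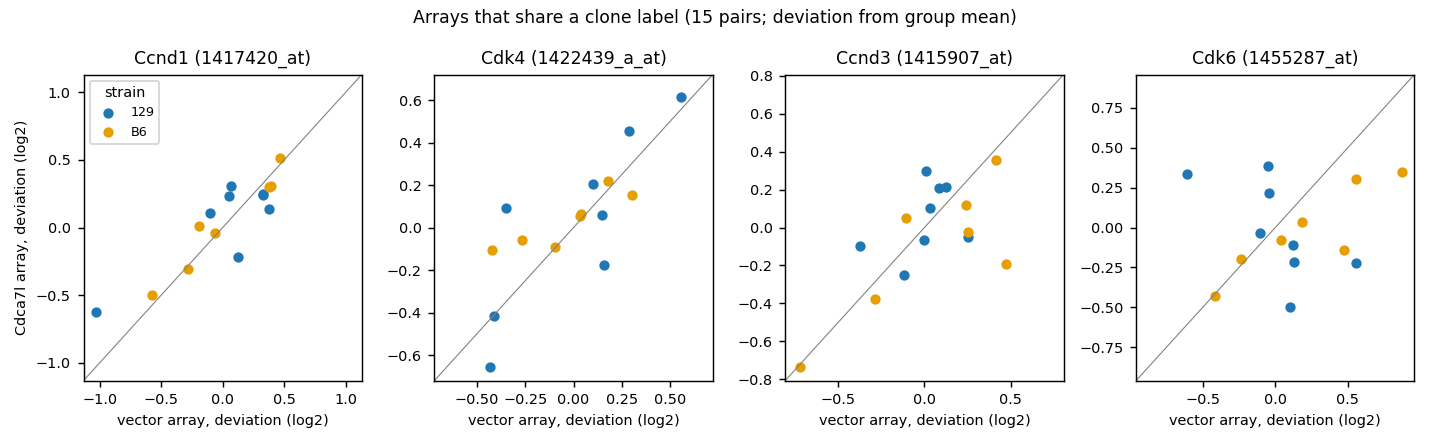
Each point is 1 of 15 clone labels, with the deviation of its vector array from the group mean on the x axis and that of its Cdca7l array on the y axis (log2), blue for 129 and orange for B6, and the line marks equal deviations. Points of Ccnd1, Cdk4 and Ccnd3 follow the line with r of 0.886, 0.796 and 0.665, and those of Cdk6 do not, with r of 0.144.

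The probe sets of a gene were compared in the same deviations over all 37 arrays, 30 of which share a label, as a description. The 3 Cdk4 sets moved closely together, with r from 0.851 to 0.959 over 3 pairs. The 3 Ccnd1 sets gave 0.676 to 0.810 and the 2 Cdk6 sets 0.754. The 7 Ccnd2 sets were less uniform, with r from 0.127 to 0.904 over 21 pairs. Between genes, the leading sets were tested over 22 clone labels, each the mean of its arrays, and 0 of 10 pairs passed after adjustment. The largest were Ccnd1 with Ccnd3, r = 0.476 and rho = 0.518 (permutation test, p = 0.0245, adjusted p = 0.160), and Ccnd2 with Cdk6, r = 0.469 and rho = 0.583 (permutation test, p = 0.0320, adjusted p = 0.160). The 2 kinases gave r = -0.201 and rho = -0.092 (permutation test, adjusted p = 0.607).

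**Figure D4:**
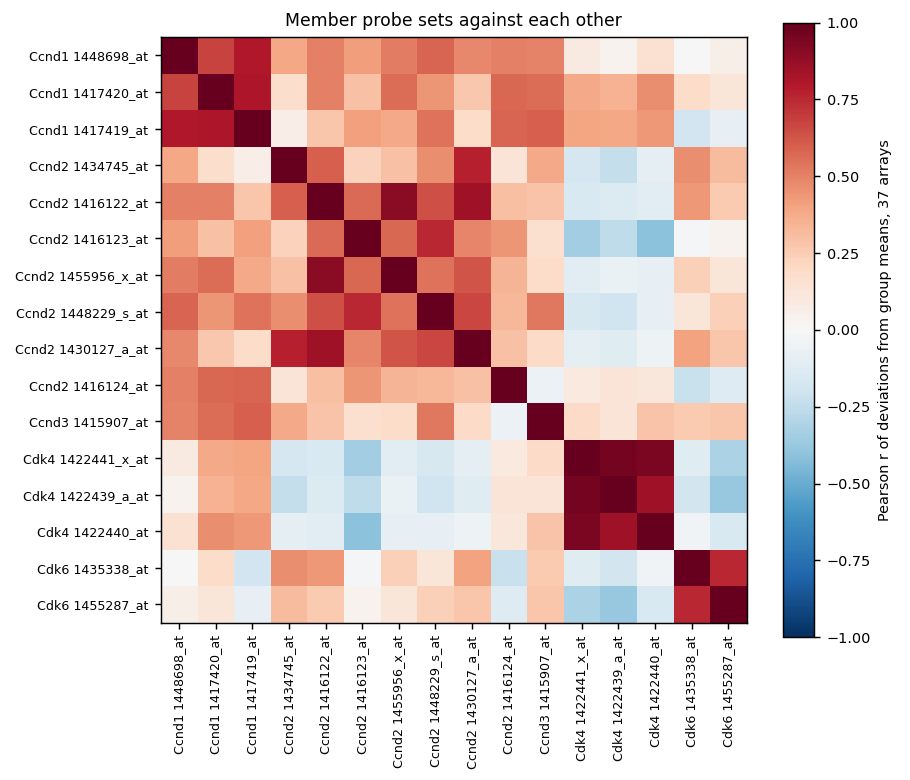
The colour of each cell gives Pearson r between 2 member probe sets (rows and columns) over the deviations of 37 arrays from their group means, from -1 (blue) to 1 (red). The Cdk4 sets form a block with r of at least 0.851, the Ccnd1 sets one with at least 0.676, and the Ccnd2 sets a looser one.

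The deviations of the members were also set against scores of 2 lists downstream of the kinases, the 14 measured E2F targets of DNA replication and the 13 measured mitotic genes, over the 22 clone labels. Of 32 relations 6 passed, and all 6 belonged to Cdk4. Against the DNA replication score, the leading Cdk4 set had r = 0.834 and rho = 0.710 (permutation test, adjusted p = 0.000213), and the 3 sets ranged from 0.786 to 0.879. Without the 2 farthest labels the 3 sets gave 0.631 to 0.812, and within the strains 0.886 to 0.904 over the 10 labels of 129 and 0.475 to 0.820 over the 12 of B6. Against the mitotic score they gave 0.763 to 0.810, with 0.926 to 0.927 in 129 and 0.275 to 0.462 in B6.

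These relations rest in large part on the 129 females. The Cdca7l cells with labels 4(1), 2(1), 2(3) and 1(3) had DNA replication scores of 2.17, 1.67, -1.05 and -0.20, against 2.25, 1.79, -0.25 and -1.03 in the vector cells of these labels. The labels with the highest Cdk4 values were thus those with the highest replication scores. Their astrocyte scores were -2.31 and -1.42 with Cdca7l, against -2.75 and -1.42 with vector, lower than those of the labels 2(3) and 1(3), and their part in the relation was not tested. The labels 4(1) and 2(1) both carry a 1 in parentheses, and 2(3) and 1(3) both carry a 3. Nothing says what that number stands for, and the permutation test took each label as separate. Without the 4 labels of 129 females, 0 of 32 relations passed. The 3 Cdk4 sets then gave r of 0.355 to 0.650 against the DNA replication score (18 labels, permutation test, adjusted p between 0.100 and 0.478) and 0.239 to 0.408 against the mitotic score.

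For Ccnd1 r against the DNA replication score ran from 0.047 to 0.378, for Ccnd2 from -0.265 to 0.076, for Ccnd3 it was 0.361 and for Cdk6 it ran from -0.111 to 0.063, and none passed (permutation test, adjusted p at least 0.311). For Ccnd2 the signs within the strains were opposite, as the leading set had r = -0.631 over the 10 labels of 129 and 0.761 over the 12 labels of B6, and 0.620 without the 129 females (permutation test, adjusted p = 0.100). The difference between the strains in this relation was not tested. Whether the relation of Cdk4 differs from that of the other members was not tested.

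**Figure D5:**
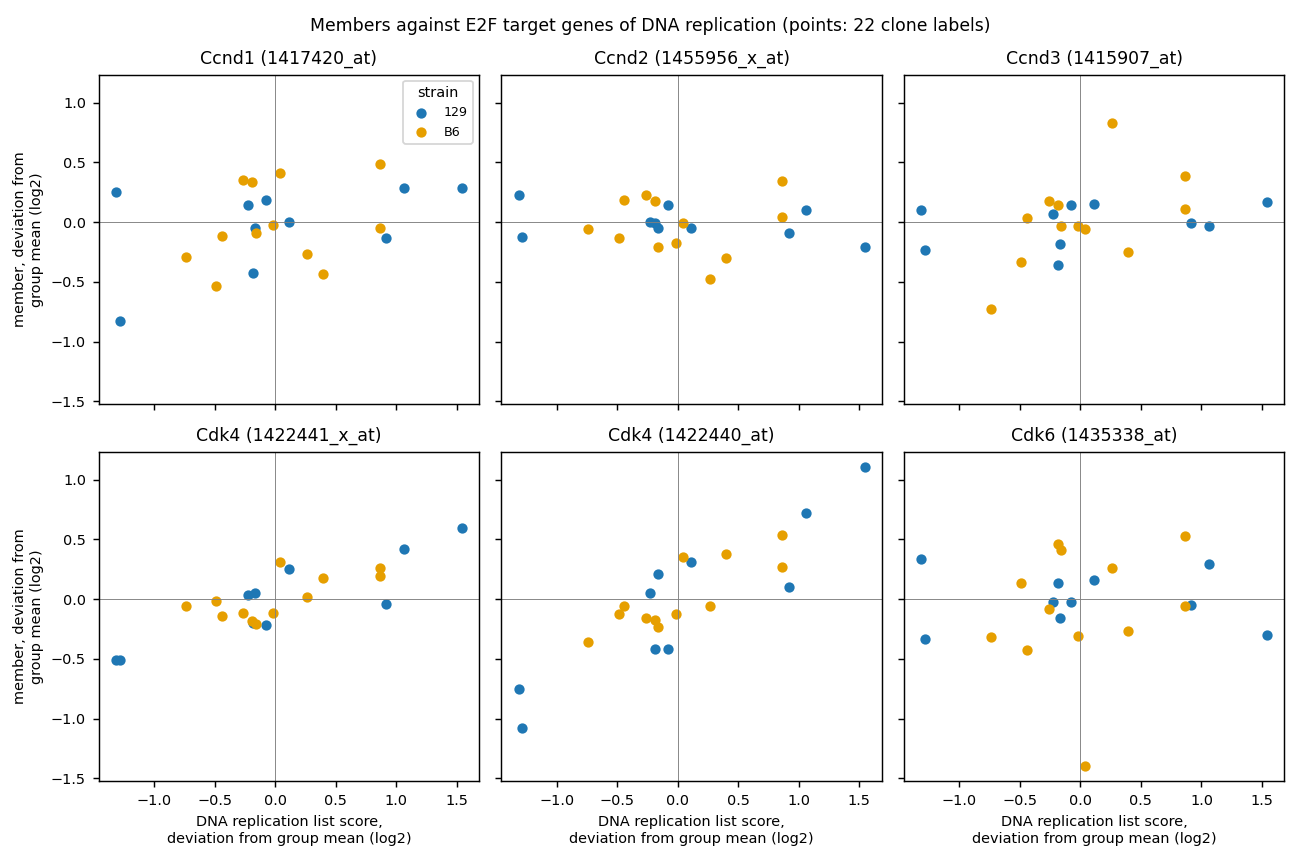
Each point is 1 of 22 clone labels, with the deviation of its score over 14 E2F targets of DNA replication on the x axis and that of a member probe set on the y axis (log2), blue for 129 and orange for B6. The 2 Cdk4 panels slope upward with r of 0.834 and 0.879, carried at the far ends by 4 labels of 129 females, and the other panels show no clear slope.

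The genes whose values were most like those of each leading set over all 37 arrays were found by Pearson r, as a description with no test. For Cdk4 they were Aprt, which encodes an enzyme of adenine salvage, with r = 0.921, Prkg2, a protein kinase gene, with 0.905 and Cenpw, a kinetochore gene, with 0.903, and these 3 also led when deviations from group means were used. For Ccnd3 they were Tpm4, a tropomyosin gene, with 0.810, Marveld1 with 0.776 and Grn, which encodes progranulin, with 0.771, none of which was among the closest 3 by deviations. For Ccnd2 they were Sult4a1, a sulfotransferase gene, with 0.784, Micall1 with 0.741 and Fam8a1 with 0.739, of which Sult4a1 and Fam8a1 were kept by deviations. For Cdk6 they were Diaph2, a formin gene, with 0.745, Ncoa6, a nuclear receptor coactivator gene, with 0.721 and Fip1l1, of the polyadenylation machinery, with 0.716. None of these 3 was among the closest 3 for Cdk6 once 129 female vector 1(3) was left out, while Diaph2 and Ncoa6 were kept by deviations. For Ccnd1 they were Tchh with 0.737, Aldh1a1, a retinaldehyde dehydrogenase gene, with 0.732 and Dynlt3, a dynein light chain gene, with 0.729, none of which was among the closest 3 by deviations. With 129 female vector 1(3) left out, Cdk4 kept Aprt and Prkg2 among its closest 3, and Ccnd2 kept Sult4a1 and Fam8a1. In the same way Ccnd3 kept Tpm4 and Marveld1, and Ccnd1 kept Aldh1a1.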

How the data were processed

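Each array measured RNA of 1 culture, amplified before labelling per the labels' protocols. The deposited log2 values were made by the authors with GCRMA in Partek, per the submitters' processing notes, and no source used here states whether the 37 arrays went through that step jointly. GCRMA shifts and scales low signals, so values near background have no firm order. Of 45101 probe sets, 34958 carried 1 gene symbol, 932 several and 9211 none, and only sets with 1 symbol were named. Gene positions are from GRCm38.p6. The 64 control sets were left out, and the 25579 sets above the table's median of 3.19 on at least 4 arrays were tested. The number of arrays, 4 or 5 a group, limits the precision.

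limma 3.58.1 in R 4.3.3 fitted 8 group means to 37 arrays, with 29 residual degrees of freedom, and 10 comparisons were adjusted by Benjamini-Hochberg over all tested sets at a threshold of 0.05. Intervals are at 95%. All adjusted p-values of differences are limma's. Relations used permutation tests with 100000 draws in Python 3.11.15 with SciPy 1.17.1, adjusted within each family. The same-label, list-score and lead-pair relations, and those without 129 females, were chosen after values were seen. The scripts were tested on simulated data.

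The labels give 15 pairs of arrays the same clone label. Correlations of their deviations were 0.061 to 0.716 in 129 females, -0.0887 to 0.623 in 129 males, 0.432 to 0.775 in B6 females and 0.376 to 0.572 in B6 males. A rule of every pair over 0.1 was thus met in B6 and not in 129. The pairs that missed it were 129 female 2(3) and 129 male 3(3), and the other pairs of 129 had 0.416 to 0.716. Nothing says what the numbers in a label stand for. The first number recurs within groups, as in 2(1) and 2(3) of 129 females and 3(1), 3(2) and 3(3) of 129 males. It also recurs in 2(2) and 2(4) of B6 male vector cells. Every fit took such labels as different, and whether these cultures share an origin is not stated. The p-values measure the spread between these cultures and do not account for a shared first number.

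Each gene's leading probe set is that with the highest mean, and of each pathway list up to 4 genes past the threshold with the largest absolute difference, or where none passed the 2 with the smallest p-values, could be named. Values of other probe sets than the leading one were singled out after they were seen. The members and lists were chosen with earlier results of these data known. Alternatives were an intensity trend, array weights, other filters, quantile normalization, the clone label as a block, 1 set per gene, vector arrays alone and leaving out arrays. The fixed block keeps only the 30 arrays in pairs, so its values differ from the main fit in the arrays as well as in the block.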

Additional observations from a re-analysis of the deposited data

Results flagged for a closer look

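In 13 of 128 combinations of probe set and group, 1 array lay farther from its group than Dixon's 95% critical value allows, where chance gives about 1 in 20, or 6.4. Of these, 3 were the clone label 1(3) of 129 females on Ccnd1. On 1417420_at it stood at 12.86 with Cdca7l (others 13.61 to 13.72) and at 12.36 with vector (others 13.71 to 13.77), and on 1417419_at at 9.44 with Cdca7l (others 11.17 to 11.29).

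Ccnd2 gave 7. The set 1455956_x_at stood at 13.68 in 129 male Cdca7l 3(2) (others 13.37 to 13.46) and at 12.70 in B6 male Cdca7l 5(3) (others 13.27 to 13.35). The set 1448229_s_at stood at 13.67 in 129 male vector 3(2) (others 13.38 to 13.45), and 1430127_a_at at 13.12 in 129 male Cdca7l 5(1) (others 13.36 to 13.44). The set 1416124_at stood at 11.92 in B6 female Cdca7l 4(5) (others 12.24 to 12.26), at 11.53 in B6 male Cdca7l 5(3) (others 12.26 to 12.33) and at 11.75 in B6 male vector 2(4) (others 12.25 to 12.29).

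The other 3 were high arrays. Ccnd3 1415907_at stood at 11.41 in 129 female Cdca7l 4(1) (others 11.10 to 11.14), Cdk4 1422440_at at 9.79 in B6 female Cdca7l 6(3) (others 9.26 to 9.32) and Cdk6 1455287_at at 10.44 in B6 female Cdca7l 3(3) (others 10.00 to 10.06).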

How the results depend on the processing

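The 10 counts of member calls were recomputed under other processing choices. Between the strains, 4 of 16 passed, against 7 with an intensity trend in the variance prior, 10 with array weights, 2 with a random replicate block for the label, 2 of 5 with 1 probe set per gene and 0 on the vector arrays alone. Of all sets 25.2% passed in the main fit, and 26%, 47.4%, 16.6%, 28.1% and 8.69% under these alternatives in the same order. Leaving out 1 array gave 2 to 8 strain calls, with 2 without B6 female Cdca7l 4(5), 7 without B6 male vector 5.6(1), and 8 without 129 female Cdca7l 1(3), 129 female vector 1(3) or B6 female Cdca7l 6(3). With array weights, 2 Cdk4 sets were lower in males (-0.27 for 1422441_x_at and -0.43 for 1422440_at), where 25.2% of all sets passed between the sexes. For the sex difference between strains 2 sets passed (-0.57 for Cdk4 1422439_a_at and 1.01 for Cdk6 1455287_at), where 24.3% of all sets passed. In both comparisons the members' 2 of 16 is below the share of the whole array. Why array weights gave more calls was not tested. The other 7 counts, all of which concern Cdca7l, stayed at 0 under every alternative run, the random and the fixed replicate block included, and the fixed block could not be fitted between strains or sexes. Of 7474 alternative values of single probe sets, 7403 stayed on the same side of the threshold, 23 lost the call, 48 gained one and 0 called values reversed. Among the 7403, 449 changed sign with neither fit past the threshold.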
